A study of Mus musculus with 6 samples.

Results

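The 37 genes described here encode proteins of the lysosome: the glycosidases, sulfatases and lipid hydrolases of its lumen, the enzymes and receptors that sort them there, and proteins of its membrane, among them those that move cholesterol. They were chosen by gene name with earlier results of these data known, though the rule itself uses no measured value. Of the 37 genes, 32 had a probe set (a group of probes read together as 1 value) paired with that gene alone, out of 16797 such genes on the array. Gaa, Lipa, Cd63 and Ctns had no probe set in the annotation used here, and M6pr shares its probe set with the pseudogene M6pr-ps. The values come from 6 Affymetrix arrays of total RNA from NIH3T3 cells, an immortalized line of mouse fibroblasts called Normal cells in the study. All cultures were plated in 25 mM glucose, moved to medium with 1 mM glucose (low glucose, LG) and harvested 72 h later. The 3 cultures named N received no forskolin (FSK). The 3 named NF received 10 µM FSK, which activates adenylate cyclase and, through cAMP, protein kinase A (PKA), at 24 h and at 48 h of growth in LG. The arrays are labelled as biological replicates. The NF/N comparison asks how Normal cells respond to PKA activation during glucose starvation, and catabolic compartments such as the lysosome are among the pathways that the study follows.

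The lysosome is an acidic organelle in which polymers delivered by endocytosis and autophagy are cut into sugars, lipids and amino acids. Its hydrolases are made in the endoplasmic reticulum, tagged with mannose 6-phosphate in the Golgi and carried onward by mannose 6-phosphate receptors, while heavily glycosylated proteins such as Lamp1 and Lamp2 line the membrane that holds them. Many of these genes can be transcribed together by TFEB, TFE3 and MITF, which bind E-box sequences near the start site, the CLEAR element, and several of the genes are known from lysosomal storage diseases.

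Promoter sequences are shown for 5 members because the E-box is the sequence that the TFEB family binds and the CRE, the cAMP response element, the one bound by CREB, a target of PKA. The sequences are from RefSeq on the mouse build GRCm38.p6, 60 bases each, written 5′ to 3′ on the strand of the gene. Capitals mark the E-box CACGTG in the first 4 and the CRE TGACGTCA in Gusb. The CLEAR core TCACGTGA is an E-box with 1 more base on each side. Gla lies at chrX:134601184-134601243 on the minus strand, upstream of the start site, and holds 2 CLEAR cores. Mcoln1 lies at chr8:3500437-3500496 on the plus strand, Lamp1 at chr8:13159096-13159155 on the plus strand and Igf2r at chr17:12769707-12769766 on the minus strand, all upstream of their start sites. Gusb lies at chr5:130003046-130003105 on the minus strand, and its CRE spans the start site.
Gla: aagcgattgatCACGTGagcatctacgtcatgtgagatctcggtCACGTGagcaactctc
Mcoln1: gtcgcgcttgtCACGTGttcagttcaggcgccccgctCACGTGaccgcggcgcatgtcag
Lamp1: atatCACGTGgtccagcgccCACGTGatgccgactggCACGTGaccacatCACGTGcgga
Igf2r: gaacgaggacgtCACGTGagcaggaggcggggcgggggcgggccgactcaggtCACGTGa
Gusb: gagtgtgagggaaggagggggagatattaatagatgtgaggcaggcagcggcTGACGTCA

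Over windows of 250 bases before to 50 after the start site, promoters were found for 33 of the 37 members, and Npc1, Asah1, Galns and M6pr had none in the table. All 3 motifs are palindromes, so that a match lies on both strands. The E-box was in 10 of the 33 members (30.3%) and in 9.37% of the 13452 tested genes with a promoter, and the CLEAR core, each of which also counts as an E-box, was in 4 members (12.1%) and 1.55% of those genes. The 10 members were Arsa, Gaa, Gla, Glb1, Gnptg, Igf2r, Lamp1, Mcoln1, Naglu and Sgsh, and the 4 with a CLEAR core were Gla, Gnptg, Igf2r and Mcoln1. The CRE was in 1 member, Gusb (3.03%), and in 2.63% of the tested genes. These are matches of letters in a window, not binding sites measured in these cells. As a description without a test, the median log2 difference (NF minus N) was 0.15 in the 9 measured members with an E-box and 0.335 in the 20 without one. In the 4 members with a CLEAR core it was 0.45, against 0.3 in the 25 without it. Without N replicate 1, an array described further on, the medians were −0.01 and 0.205 for the E-box and 0.305 and 0.18 for the CLEAR core.

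**Figure D1:**
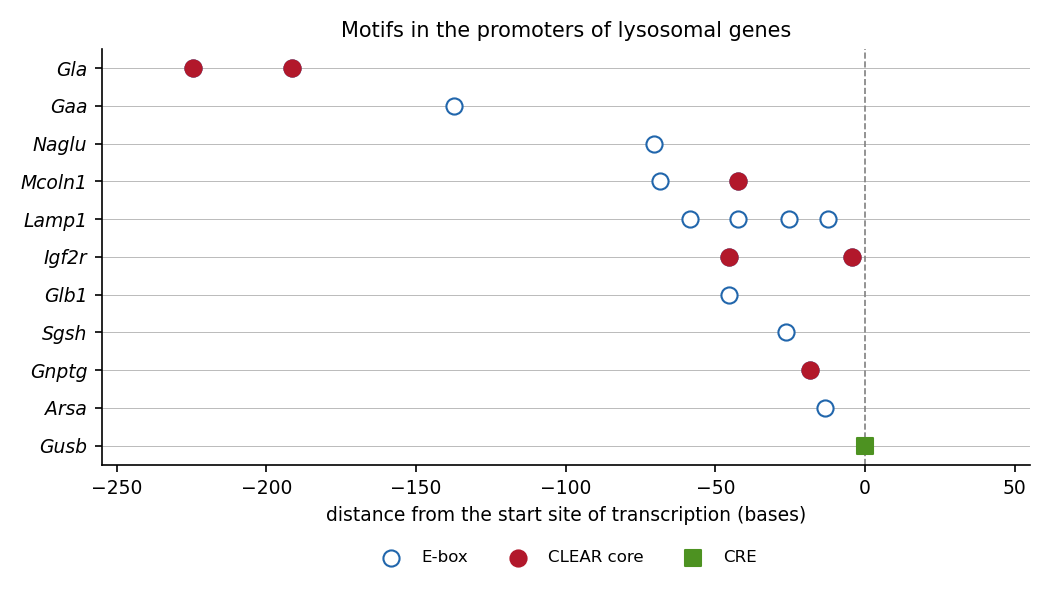
Positions of the E-box, the CLEAR core and the CRE in the promoters of the members that hold one, in bases from the start site (the dashed line), with open circles for E-boxes, filled circles for CLEAR cores and a square for the CRE. Gnptg, which has 2 start sites in the table, is drawn from one of them. The 4 E-boxes of Lamp1 lie at −61 to −10, and the 2 CLEAR cores of Gla lie farther upstream than the E-boxes of any other member shown.

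In the NF/N comparison, 1 of the 32 measured members passed the test (limma, adjusted p under 0.05 over all probe sets), and it was higher in NF. This was Gla, the α-galactosidase that removes terminal galactose from glycolipids. Among all 16797 genes, 1.83% were called higher and 0.72% lower, so the members' 3.12% called higher is 1 gene against a background of similar size. None of the members was called lower, and at an unadjusted p under 0.05 limma also found none lower, against 5.49% of all genes. At an unadjusted p under 0.05, 10 members (31.2%) were higher, against 8.33% of all genes. These were Gla, Gusb, Galc, Hexa, Fuca1, Arsb, Galns, Gnptab, Igf2r and Npc2. For 15 members (46.9%) every NF array lay above every N array, which held for 10.5% of all genes, and for none did every NF array lie below every N array (9.7% of all genes). The members are brighter than most genes on the array. Among the 8268 genes with a mean log2 value of at least 3.7, the median over all probe sets, 15.5% were higher at an unadjusted p under 0.05 and 18.4% had every NF array above every N array. At the adjusted threshold 3.58% of these brighter genes were called higher, beside the members' 3.12%.

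The group mean was higher in NF for 28 of the 32 members (87.5%), and the median log2 difference over the members was 0.311, with a range from −0.26 (Idua) to 1.40 (Gla). The 4 members with a lower mean in NF were Idua, Sgsh, Asah1 and Gm2a. Over all genes the mean was higher in NF for 45.2% and the median difference was −0.0265. Over the 8268 brighter genes these values were 59.8% and 0.0872. The arrays measured whole cultures, so that a difference in RNA per cell cannot be told apart from a difference in the share of cells that express a gene.

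One array of the N group bears on all of these differences. N replicate 1 had a narrower spread of log2 values (SD 2.42) than the other 5 arrays (2.58 to 2.62), and it was the lowest of the 6 arrays for 26 of the 32 members and for 4847 of the 8268 brighter genes. The members' median deviation from their own mean was −0.509 in N replicate 1, −0.0637 in N replicate 2 and −0.00604 in N replicate 3. In the NF arrays it was 0.174, 0.0858 and 0.197. N replicate 1 thus lay well below the other N arrays, which themselves lay just below the NF arrays. Among the brighter genes, N replicate 1 had a median deviation of −0.312, and N replicates 2 and 3 had 0.0235 and 0.148. The NF arrays had 0.0477, 0.0196 and 0.0672 there, so that N replicate 3 was the highest.

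Without N replicate 1, the members' median difference was 0.151 and the mean was higher in NF for 22 of 32 (68.8%), against a median of −0.0376 and 44.6% for the brighter genes. Fewer members passed an unadjusted p under 0.05, with 6 higher and 2 lower (Idua and Sgsh), against 7.59% of all genes higher and 10.2% lower. At the same time 4 passed the adjusted threshold in place of 1: Gla, Gnptab, Galc and Gusb, all higher in NF. Over all genes 2.93% were then called higher. A further quantile normalization of the 6 arrays, which gives them the same distribution, called these 4 and Arsb, and 2.96% of all genes, higher in NF. Without NF replicate 1 or NF replicate 3, none of the members passed by limma (each fit left 7 higher and none lower when p was not adjusted), and the calls over all genes fell to 1 and 2. The shares of all genes at that unadjusted threshold were 5.66% higher and 3.22% lower in the fit that left out NF replicate 1, and 5.6% and 3.61% in the one that left out NF replicate 3.

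**Figure D2:**
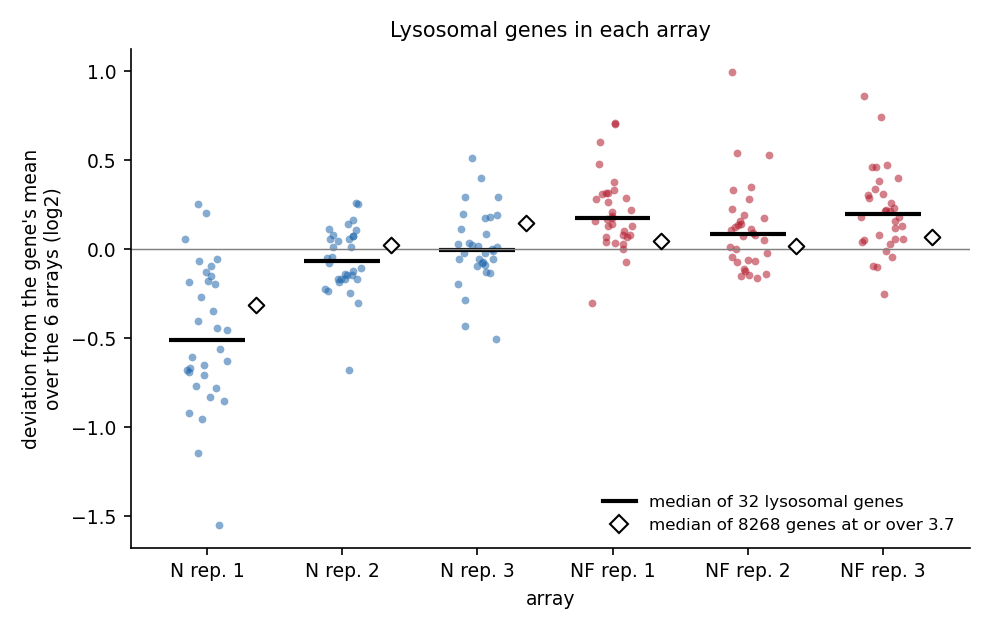
Deviation of each of the 32 measured members from its own mean over the 6 arrays, on the log2 scale (points, 1 per member), with the members' median (line) and the median of the 8268 brighter genes (diamond) in each array. N replicate 1 is the lowest array in both sets, at −0.509 for the members and −0.312 for the brighter genes, and the 3 NF arrays lie above 0 in both. For the brighter genes N replicates 2 and 3 also lie above 0, at 0.0235 and 0.148.

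Glycosidases were the group with the called gene. Of the 12 listed, 11 were measured. Among these Gla alone rose, 10 missed the threshold, and the mean was higher in NF for 10, with a median log2 difference of 0.435, or 0.23 without N replicate 1. Gla had log2 values of 7.59, 7.84 and 8.01 in the N arrays and 9.22, 9.06 and 9.37 in the NF arrays. The lowest NF array lay about 1 log2 unit above the highest N array, and the groups did not overlap. Gla rose from a mean of 7.81 ± 0.21 (SD, n = 3) to 9.22 ± 0.16 (n = 3), a log2 difference of 1.40 (SE 0.16) or 2.65-fold, with an adjusted p of 0.00843 in limma. Over 13 alternative settings its log2 difference was 1.29 to 1.5 and its limma or per-gene adjusted p 0.00143 to 0.207, with 10 settings past the threshold. Among these the highest-mean setting repeats the main fit, since Gla has 1 probe set. It did not pass without NF replicate 1 (adjusted p = 0.0767 in limma), without NF replicate 3 (adjusted p = 0.0758 in limma) or in the adjusted per-gene test.

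Gusb, the β-glucuronidase whose promoter holds the CRE shown above, had values of 5.17, 5.83 and 5.51 in N and 6.42, 6.29 and 6.41 in NF. All NF arrays lay above all N arrays and close together. NF exceeded N by 0.87 on the log2 scale (SE 0.18), from 5.51 ± 0.33 to 6.37 ± 0.07 (SD, n = 3 each), with an adjusted p of 0.0505 in limma, just outside the threshold. Without N replicate 1 it was 0.70, with an adjusted p of 0.024 in limma.

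Galc removes galactose from galactosylceramide, a lipid of myelin. Its values were 3.66, 4.36 and 4.42 in N and 5.21, 4.94 and 5.07 in NF. The groups did not overlap, and N replicate 1 was the lowest array. Galc had a log2 difference of 0.93 (SE 0.21; adjusted p = 0.0733 in limma), which was 0.68 without N replicate 1 (adjusted p = 0.0201 in limma).

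Idua, the α-iduronidase of heparan and dermatan sulfate breakdown, had the largest fall of mean among the members, with no call. Its values were 4.05, 4.36 and 4.28 in N and 3.80, 3.94 and 4.19 in NF. The highest NF array lay above N replicate 1, so that the groups overlapped. NF minus N was −0.26 on the log2 scale (SE 0.15), with an adjusted p of 0.553 in limma.

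The remaining glycosidases did not pass the test. Hexa, a subunit of the β-hexosaminidase that degrades ganglioside GM2, had a log2 difference of 0.43 (adjusted p = 0.307 in limma), and Man2b1, an α-mannosidase, one of 0.47, and in both every NF array lay above every N array. The groups overlapped for Fuca1, an α-fucosidase, at 0.50. They also overlapped for Glb1, the β-galactosidase (0.33), Neu1, the sialidase (0.28), Naglu, which acts on heparan sulfate (0.17), and Manba, the β-mannosidase (0.01). Manba was dim, with values of 2.50 to 2.85 in all arrays, and its log2 difference cannot be read as a level change. The differences of Hexa, Man2b1 and Fuca1 were 0.26, 0.23 and 0.29 without N replicate 1. Those of Glb1, Neu1 and Naglu were then −0.01, 0.00 and −0.09.

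**Figure D3:**
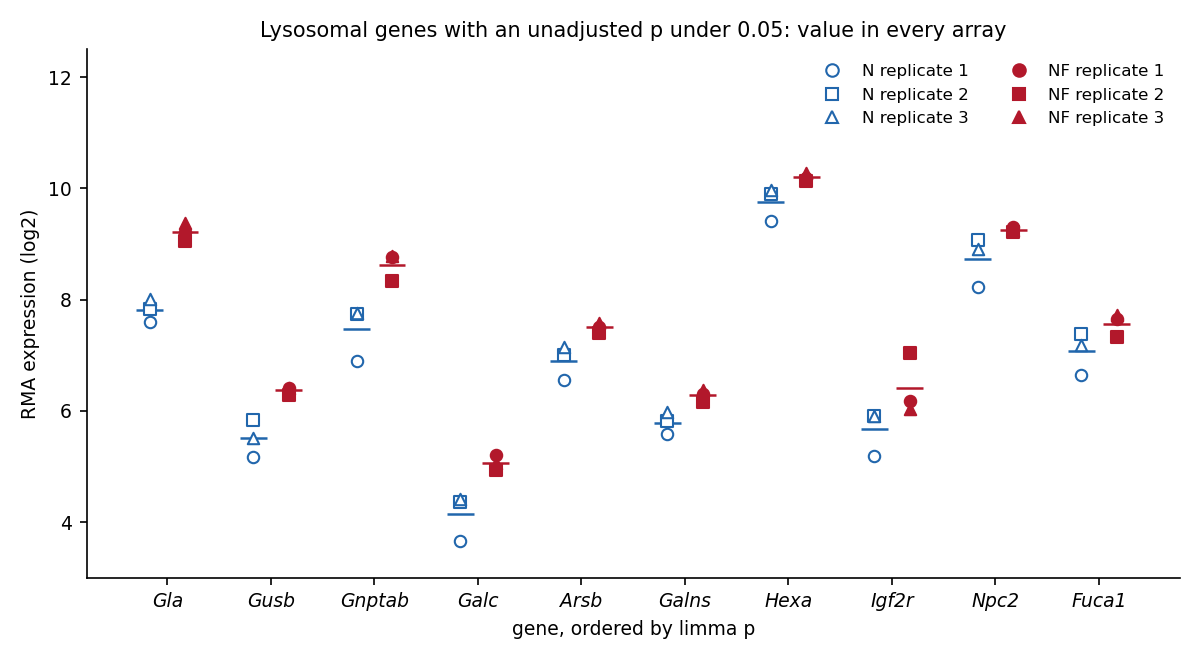
Log2 values of the 10 members with an unadjusted p under 0.05 in limma, ordered by p, in each of the 6 arrays, with lines for the group means. The 3 NF values of Gla, from 9.06 to 9.37, lie above its 3 N values, from 7.59 to 8.01, Fuca1 is the member shown whose groups overlap, and N replicate 1 is the lowest array for every gene shown.

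The sulfatases cut sulfate groups from glycosaminoglycans and sulfolipids. All 5 were measured and none passed the test in either direction. Their median log2 difference was 0.0334, and it was −0.1 after quantile normalization and −0.0479 without N replicate 1. Arsb, which acts on dermatan and chondroitin sulfate, had values of 6.55, 7.01 and 7.15 in N and 7.51, 7.40 and 7.58 in NF. The groups did not overlap, and the log2 difference was 0.60 (SE 0.18), with an adjusted p of 0.16 in limma. The other probe set of Arsb read 5.41, 6.61 and 6.39 in N and 7.19, 6.94 and 7.01 in NF, also without overlap, with a log2 difference of 0.91 (SE 0.29; adjusted p = 0.197 in limma).

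Galns, which acts on keratan sulfate, had values of 5.58, 5.82 and 5.98 in N and 6.30, 6.16 and 6.38 in NF. Every NF array lay above every N array, with a log2 difference of 0.49 (SE 0.15; adjusted p = 0.166 in limma). Sgsh, the heparan sulfamidase, had values of 6.42, 7.12 and 7.16 in N and 6.95, 6.71 and 6.82 in NF. Its NF arrays all lay between N replicate 1 and the other N arrays, and the log2 difference was −0.07 (SE 0.21), or −0.31 without N replicate 1 (adjusted p = 0.247 in limma). For Arsa, which acts on sulfatide, and Ids, which acts on iduronate sulfate, the groups overlapped at log2 differences of 0.03 and 0.01.

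Of the 6 lipid hydrolases and activators, 5 were measured and none passed the test. Their median log2 difference was 0.301 (0.175 without N replicate 1), and the mean was higher in NF for 3. Ppt1, the thioesterase that removes palmitate from proteins, had values of 8.65, 8.67 and 8.75 in N and 9.03, 8.80 and 9.15 in NF. Psap, the precursor of the saposins that present sphingolipids to their hydrolases, had values of 11.20, 11.55 and 11.60 in N and 11.76, 11.73 and 11.76 in NF. In both, every NF array lay above every N array, by a narrow margin. The log2 difference was 0.30 for each (SE 0.14 for both), with adjusted p of 0.392 for Ppt1 and 0.428 for Psap in limma. It was 0.28 for Ppt1 and 0.18 for Psap without N replicate 1.

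Asah1, the acid ceramidase, had values of 8.80, 8.38 and 8.66 in N and 8.59, 8.41 and 8.45 in NF. The groups overlapped, N replicate 1 was the highest array, and the log2 difference was −0.13 (SE 0.15; adjusted p = 0.778 in limma). Smpd1, the acid sphingomyelinase, had an overlapping log2 difference of 0.32. Gm2a, the activator that lifts ganglioside GM2 for β-hexosaminidase, was dim in all arrays (3.09 to 3.48), with a difference of −0.05. Tpp1, a tripeptidyl peptidase and the 1 protease among the members, had values of 8.31, 8.95 and 9.02 in N and 9.16, 8.94 and 9.24 in NF. NF replicate 2 fell among the N arrays, and the log2 difference was 0.35 (SE 0.21; adjusted p = 0.54 in limma), or 0.13 without N replicate 1.

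The sorting genes had the highest median log2 difference of the groups, 0.746 over 3 measured genes of 4. That median is the value of Igf2r, which was 0.434 without NF replicate 2. None passed the test, and in all 3 every NF array lay above every N array. Gnptab encodes the catalytic part of the enzyme that starts the mannose 6-phosphate tag. Its values were 6.90, 7.75 and 7.76 in N and 8.76, 8.33 and 8.79 in NF. The groups were well apart, with N replicate 1 lowest. The log2 difference was 1.16 (SE 0.25), or 2.23-fold, from 7.47 ± 0.49 to 8.62 ± 0.26 (SD, n = 3 each), with an adjusted p of 0.0622 in limma. Without N replicate 1 it was 0.87, with an adjusted p of 0.018 in limma.

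Igf2r, the cation-independent mannose 6-phosphate receptor, had values of 5.19, 5.90 and 5.91 in N and 6.17, 7.04 and 6.03 in NF. NF replicate 2 stood well above the other NF arrays, which lay just above the N arrays. Igf2r had a log2 difference of 0.75 (SE 0.30; adjusted p = 0.332 in limma). Gnptg, the accessory subunit of the tagging enzyme, had values of 7.23, 7.25 and 7.24 in N and 7.30, 7.27 and 7.47 in NF, a log2 difference of 0.11 (adjusted p = 0.775 in limma). Both Igf2r and Gnptg hold a CLEAR core in their promoters.

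**Figure D4:**
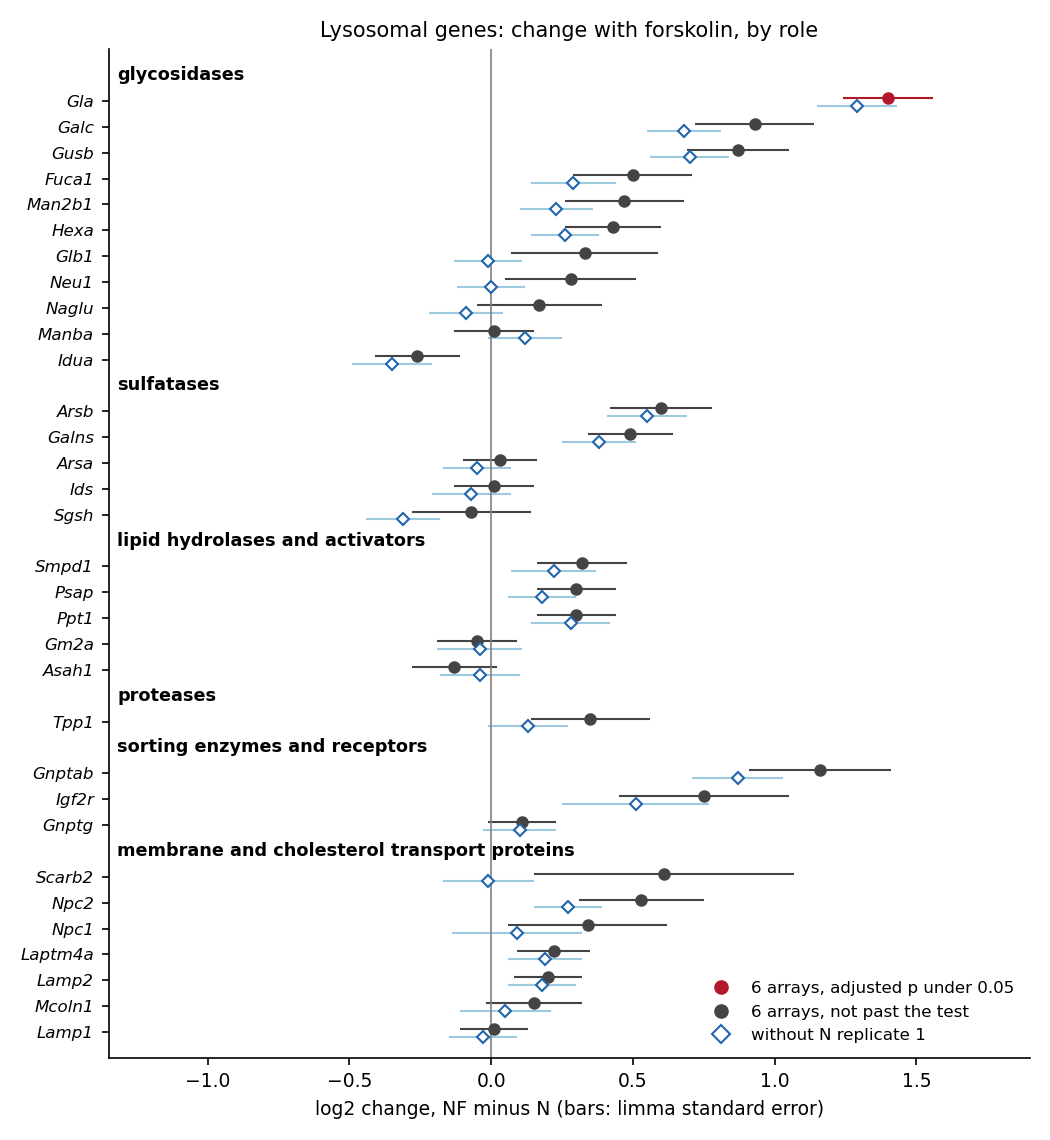
Log2 difference (NF minus N) for each of the 32 measured members, by role, from the 6 arrays (circles) and without N replicate 1 (diamonds), with bars for limma's standard error. Gla, at 1.40, is the member past the adjusted threshold, and Gnptab (1.16), Galc (0.93) and Gusb (0.87) follow it. Arsb has 2 probe sets, and its circle and diamond come from different ones, each the one with the lowest p in its fit.

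Of the 9 membrane and cholesterol transport proteins, 7 were measured and none passed the test. The mean was higher in NF for all 7, with a median log2 difference of 0.223. Without N replicate 1 the mean was higher in NF for 5 of the 7 and the median was 0.0882. Npc2, the soluble protein that hands cholesterol to Npc1, had values of 8.22, 9.07 and 8.91 in N and 9.31, 9.22 and 9.26 in NF. The groups did not overlap, and N replicate 1 was the lowest array by a wide margin. The log2 difference was 0.53 (SE 0.22; adjusted p = 0.343 in limma), and 0.27 without N replicate 1. Laptm4a, a membrane protein of late endosomes and lysosomes, had values of 11.11, 11.13 and 11.32 in N and 11.37, 11.35 and 11.51 in NF. Its groups did not overlap, with a log2 difference of 0.22 (SE 0.13; adjusted p = 0.528 in limma).

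Scarb2, the receptor that carries glucocerebrosidase to the lysosome, showed the effect of N replicate 1 most. Its values were 5.84, 7.50 and 7.90 in N and 7.67, 7.56 and 7.85 in NF. Outside N replicate 1 the groups overlapped, and the log2 difference of 0.61 (SE 0.46; adjusted p = 0.652 in limma) was −0.01 without it. Lamp2 had a log2 difference of 0.20, with every NF array above every N array. The groups overlapped for Npc1, the cholesterol exporter (0.34), Mcoln1, a cation channel (0.15), and Lamp1 (0.01). Leaving out N replicate 1 gave 0.09, 0.05 and −0.03. The 4 E-boxes shown for Lamp1 thus stood beside a difference near 0.

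Another 5 lists of lysosomal genes were read in the same way. Of 14 measured cathepsins, 1 rose, Ctsb, a cysteine protease of the lysosome. Its values were 9.03, 9.60 and 9.28 in N and 10.26, 10.19 and 10.28 in NF, with no overlap, a log2 difference of 0.94 (SE 0.16) and an adjusted p of 0.0313 in limma. The cathepsins' median difference was 0.146. Of 25 other lysosomal membrane proteins, 1 rose, Tpcn2, a cation channel. Its values were 5.51, 5.44 and 5.62 in N and 6.22, 6.30 and 6.78 in NF, with no overlap, a log2 difference of 0.91 (SE 0.17) and an adjusted p of 0.039 in limma. The median of that list was 0.132, or 0.0811 without N replicate 1. Neither call held without any one of the NF arrays or without N replicate 3, and that of Tpcn2 was also lost without N replicate 2 and after quantile normalization. Without NF replicate 3 the adjusted p was 0.182 for Ctsb and 0.157 for Tpcn2 in limma. Limma found 5 of the 25 other membrane proteins and 1 of the 14 cathepsins higher at an unadjusted p under 0.05. None of either list was lower, beside 8.33% higher and 5.49% lower among all genes.

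Of 16 other lysosomal hydrolases and 21 subunits of the V-ATPase, the proton pump that acidifies the lysosome, none passed the adjusted threshold in limma. At an unadjusted p under 0.05 limma found 3 of the hydrolases (Pla2g15, Dnase2a and Siae) and 5 of the subunits (Atp6v1a, Atp6v1b2, Atp6v1e1, Atp6v0d1 and Atp6v0e) higher and none lower, beside the 8.33% higher and 5.49% lower among all genes. For the hydrolases these counts were 2 higher and 4 lower without N replicate 1, where all genes gave 7.59% and 10.2%. After quantile normalization they were 4 higher and 3 lower, beside 1528 higher and 1452 lower among all 16797 genes. The per-gene test named in the statistics section of the methods, unadjusted, found 2 of the hydrolases higher, and 6 of the subunits higher and 1 lower (Atp6v1g1). The median log2 difference was 0.033 for the hydrolases and 0.173 for the subunits. That of the hydrolases was −0.0547 after quantile normalization, −0.13 without N replicate 1 and −0.0472 without NF replicate 3. Of 17 measured genes of the TFEB family and of mTORC1 control at the lysosome, none passed in limma. At an unadjusted p under 0.05, limma found 1 higher (Fnip2, 0.54) and 1 lower (Rheb, −0.44), and the per-gene test 1 lower (Rragc, −0.22). Tfeb was not measured. Tfe3 had a log2 difference of −0.35 (adjusted p = 0.488 in limma) and Mitf one of −0.30 (adjusted p = 0.528 in limma), and both means were lower in NF. The median log2 difference of this list was 0.0542, and −0.0973 without N replicate 1. Every NF array lay above every N array for 8 of the 21 V-ATPase subunits and 8 of the 25 other membrane proteins. The same held for 2 cathepsins, 4 other hydrolases, 1 gene of the TFEB and mTORC1 list and 10.5% of all genes. Every NF array lay below every N array for 1 V-ATPase subunit, 1 other membrane protein, 3 genes of the TFEB and mTORC1 list and 9.7% of all genes. Over the 6 arrays the members' median of 0.311 was above those of the 5 lists, but without N replicate 1 it was 0.151, below the 0.163 of the V-ATPase subunits. No test of these differences was made.

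**Figure D5:**
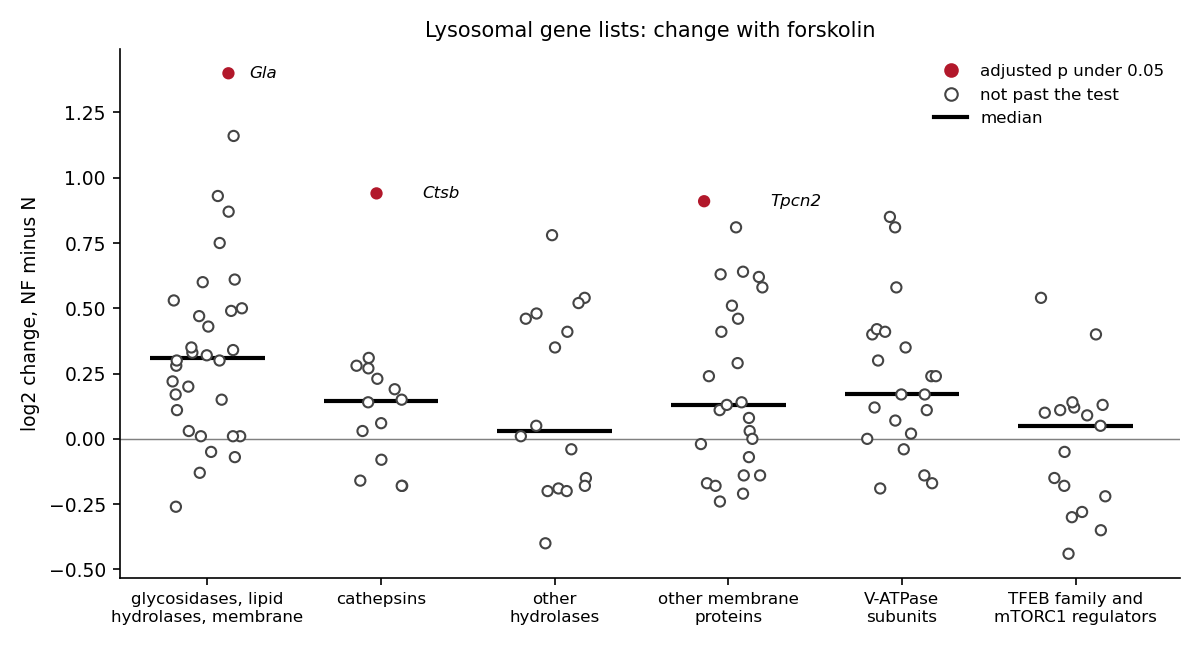
Log2 differences (NF minus N) of the members and of the 5 further lysosomal lists, 1 point per gene, with the median of each. The members' median is 0.311, and the medians of the other lists lie between 0.033 (other hydrolases) and 0.173 (V-ATPase). Without N replicate 1, which is not drawn, the members' median is 0.151, that of V-ATPase 0.163 and that of the other hydrolases −0.13.

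The arrays carried the genes of fibroblasts. Vim (12.12 to 12.36), Fn1 (12.40 to 12.65) and Col1a1 (8.75 to 9.44) were high in all 6 arrays, though Fap and Lum, 2 of the 10 measured fibroblast markers, were below 3.7 throughout. Of the 10, 1 rose, Col3a1, a fibrillar collagen (log2 difference 1.33, adjusted p = 0.0157 in limma), a call lost with the replicate number as a block (adjusted p = 0.0603 in limma) and on leaving out NF replicate 1, NF replicate 3 or N replicate 3 (adjusted p = 0.113, 0.114 and 0.0561 in limma). Of the 8 measured macrophage markers, 6 were below 3.7 in all arrays, among them the defining Ptprc and Itgam. Cd14 rose in NF (log2 difference 1.05, adjusted p = 0.0439 in limma), a call lost with the replicate number as a block (adjusted p = 0.11 in limma) and without N replicate 3 or any one of the NF arrays (adjusted p from 0.0899 to 0.235 in limma). Lyz2, itself a lysosomal enzyme, had 0.99 (adjusted p = 0.371 in limma), and 0.43 without N replicate 1. The summed linear level of the macrophage list was 89.7 to 147 in N and 176 to 205 in NF, against 13600 to 16800 and 16000 to 16500 for the fibroblast list. Cd14 and Lyz2 are the macrophage markers above 3.7, and the 6 below it had log2 differences of −0.12 (Cx3cr1) to 0.21 (Tyrobp). The part of other cells in the members' differences was not tested. None of the 6 epithelial and 4 endothelial markers passed in limma (1 epithelial marker, Cdh1, was lower at an unadjusted p under 0.05, and by the per-gene test, unadjusted, 1 endothelial marker, Tek, was higher).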

How the data were processed

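Total RNA of 3 N and 3 NF cultures was measured on Affymetrix arrays. The authors summarized probes by RMA in the package oligo with an ENSEMBL annotation, dropped probe sets that lack an Entrez gene and deposited the values on the log2 scale. Versions and which arrays were normalized together are not given in the sources used here. RMA gives each array the same distribution before summarizing probes, so values are relative within the set. Arrays have no count depth, and their number limits the precision.

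Of 22035 probe sets, the 18197 paired with 1 gene symbol were tested (1260 with several and 2578 not listed were left out). 18187 symbols matched by Entrez ID, and 0 changed. The NF/N comparison used lmFit and eBayes of limma 3.58.1 under R 4.3.3, with Benjamini-Hochberg adjustment over all probe sets, a threshold of 0.05 and, for a gene, its probe set with the lowest p. That choice was made anew in each fit, and it lowers p for genes with several probe sets. Fits were tested on simulated data. P-values set the difference between groups against the spread between these cultures, and limma draws that spread partly from all probe sets.

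The members and lists were chosen with earlier results of these data known. All members were accounted for. Values of every array are given for members past the test and, per role, for the 2 with the lowest p and the one with the largest fall. Of other lists, genes past the test are named. The other genes named there, the markers and the array values of Gnptg and Scarb2 were added after their values were seen. Alternatives were quantile normalization, median centring, leaving out probe sets below 3.7, trend and robust options, the highest-mean probe set, a per-gene Student's t-test, a replicate block and leaving out each array. The study's statistics section names Student's t-test, while its arrays were analyzed with limma. Motifs were searched as exact letters in RefSeq promoters.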

Additional observations from a re-analysis of the deposited data

How the results depend on the processing

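The number of members past the test, 1 in the NF/N comparison, was 3 without dim probe sets (Gla, Gnptab and Gusb), 5 after quantile normalization, 2 with the trend and robust options (Gla and Gnptab), and, by the per-gene test, 0 with and 8 without adjustment. It was 0 to 4 on leaving out 1 array (4 without N replicate 1, 0 without NF replicate 1 or 3). Correlations of deviations were −0.0748, −0.078 and −0.0736 between N and NF arrays of the same replicate number, and −0.0387 to 0.142 between arrays of different numbers. Deviations sum to 0 within each group, so these values cannot settle whether the cultures were paired. With the replicate block 1 member, Gla, passed. For cathepsins (1), the count was 0 in the adjusted per-gene test and with the replicate block, and 0 to 1 on leaving out 1 array. For other membrane proteins (1), it was 2 after quantile normalization (Slc29a3 and Sidt2), 0 with the trend and robust options, the adjusted per-gene test and the replicate block, 4 in the unadjusted per-gene test, and 0 to 1 on leaving out 1 array. For other hydrolases (0), it was 1 after quantile normalization (Man2b2, lower), 2 in the unadjusted per-gene test, and 0 to 1 on leaving out 1 array. For V-ATPase subunits (0), it was 2 after quantile normalization (Atp6v1b2 and Atp6v1e1, higher) and 7 in the unadjusted per-gene test. For the TFEB and mTORC1 list (0), it was 1 after quantile normalization (Rheb, lower), 1 in the unadjusted per-gene test, and 0 to 1 on leaving out 1 array. No share of all genes was computed without dim probe sets, with median centring, the trend and robust options or the replicate block, or by the per-gene test. The fits without N replicate 2, N replicate 3 or NF replicate 2 had none either. The counts from those fits therefore have no background beside them. The cause of the changes in count was not tested.

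The members' median log2 difference stayed above 0 in all alternatives, from 0.151 without N replicate 1 to 0.43 without N replicate 3. Of 446 alternative values of the 32 members, 401 kept direction and side of the threshold, 18 newly passed, 3 (Gla) no longer passed and 24, in 9 members with small or N replicate 1-dependent differences, changed sign. The 18 include values of the unadjusted per-gene test, where the threshold was set on p itself. Galns, Ppt1 and Lamp2 passed in that test alone. For the 31 members not called, keeping the side meant not passing again. For a gene with 1 probe set, the trend and robust options, the per-gene test and the replicate block leave the log2 difference unchanged. So do leaving out dim probe sets and taking the highest-mean probe set, and a change of sign was not possible in any of these. After quantile normalization the changed values were −0.1 for Arsa, −0.11 for Ids and −0.0098 for Lamp1. After median centring they were −0.00345 for Arsa, −0.0307 for Ids, −0.0264 for Lamp1 and −0.0239 for Manba. Leaving out 1 array gave −0.0061 to 0.507 for Glb1, −0.0891 to 0.36 for Naglu and −0.00678 to 1.03 for Scarb2, each lowest without N replicate 1. It gave −0.0568 to 0.117 for Manba, −0.0479 to 0.0952 for Arsa, −0.0783 to 0.0896 for Ids, −0.311 to 0.0588 for Sgsh, −0.137 to 0.0597 for Gm2a and −0.0339 to 0.069 for Lamp1. With 3 arrays a group, small differences were not detectable, and for Manba and Gm2a signal near background limits any reading.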

Other observations

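The probe set shared by M6pr, the cation-dependent mannose 6-phosphate receptor, and the pseudogene M6pr-ps was not tested, since its signal cannot be assigned to either. Its log2 values were 8.03, 8.35 and 8.55 in N and 8.59, 8.47 and 8.70 in NF. NF replicate 2 fell among the N arrays, and the means were 8.31 and 8.58.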
